A study of Homo sapiens with 9 samples.

Results

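The 53 genes described here build and run the machinery that copies DNA in S phase. They were taken by name from a list of replication origin, replication fork and nucleotide supply genes. All 53 were found among the 58214 genes to which the transcript tables could be summed. They were ordered by role into origin recognition (6 genes), licensing (9), origin firing (7), polymerases and primase (9), the sliding clamp and its loader (6), strand joining and single-strand binding (5), nucleotide supply (4), regulators of the step from G1 into S phase (4) and chromatin copying (3).

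The measurements come from poly(A)-selected RNA sequencing of K562, a human myelogenous leukemia line with erythroid features, which the cell line field of the labels spells K652 and the sample titles spell K562. The study asked what the loss of DHX34, an RNA helicase that acts in nonsense-mediated decay (NMD), does to the transcriptome, next to the loss of UPF1, the central helicase of NMD. Control cells (SCR) received a pool of non-targeting siRNAs and are labelled WT, DHX34 knockdown cells received a pool of siRNAs against DHX34, and UPF1 knockdown cells received siRNAs against UPF1. All 3 groups had the same parental genome and underwent a repeated siRNA transfection, were collected on day 4, and hold 3 libraries each, which the study describes as biological replicates. Because siRNA lowers a transcript without removing it, each knockdown is a partial loss, seen at 1 time point in 1 cell line.

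DNA replication begins at origins that the origin recognition complex (ORC1 to ORC6) marks and on which CDC6 and CDT1 load the MCM2 to MCM7 helicase, a step called licensing. CDC7, MCM10, CDC45 and the GINS complex then switch the helicase on, primase and the polymerases alpha, delta and epsilon copy the strands, and the PCNA clamp, placed by the RFC loader, holds the polymerases on the template. Many of these genes are transcribed in late G1 and S phase by E2F factors, and in a bulk library a lower level of such a gene in every cell and a smaller share of cells in S phase cannot be told apart.

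The siRNA targets were lower in their own libraries. DHX34 stood at 72.5, 74.0 and 74.7 TMM-scaled CPM (counts over the library total, scaled so that the bulk of genes does not differ between libraries) in SCR and at 30.0, 30.0 and 34.0 in the DHX34 knockdown. UPF1 stood at 252, 266 and 267 CPM in SCR and at 105, 107 and 104.4 in the UPF1 knockdown. The fitted log2 fold changes were -1.23 ± 0.050 (SE) for DHX34 and -1.31 ± 0.031 for UPF1, with adjusted p of 3.33e-07 and 2.41e-10 (edgeR quasi-likelihood test, adjusted over all genes). Libraries held between 73478797 and 103625443 estimated counts. All 10 markers of erythroid K562 cells reached 1 TPM (a share of all transcripts in a library that corrects for transcript length) in every group, while 2 of 6 epithelial, 1 of 5 fibroblast and 1 of 5 lymphoid markers did. The summed TPM of the erythroid markers ran from 25443 to 27029 in SCR, from 23413 to 25510 after DHX34 siRNA and from 15411 to 16622 after UPF1 siRNA, and the part of this shift in the values of the replication genes was not tested.

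In SCR, the replication genes covered a 47.2-fold range of level per length. MCM7, a subunit of the replicative helicase, was highest at 344 ± 6.49 TPM (SD, n = 3), followed by TYMS, which makes thymidylate, at 282 ± 9.48 TPM and by PCNA at 242 ± 3.21 TPM. MCM7 and TYMS did not overlap with the next gene in any library, whereas PCNA overlapped with RRM2, the small subunit of ribonucleotide reductase, at 233 ± 7.89 TPM. At the low end stood CCNE2, a cyclin of the G1/S step, at 10.4 ± 0.279 TPM, POLD3, an accessory subunit of polymerase delta, at 8.64 ± 0.272 TPM and E2F2, an activating E2F factor, at 7.28 ± 0.153 TPM, none of which overlapped with its neighbour. Of the 53 genes, 10 exceeded 100 TPM and 2 lay below 10 TPM, and the median was 48.4 TPM. For 51 of the 53 genes the transcript that GENCODE 44 names as representative was quantified. The representative transcripts of MCM4 and UHRF1 were not analysed here. MCM4 therefore rests on 14 other transcripts, and its full-length coding transcript MCM4-201 carried only 2.504 ± 0.490 TPM in SCR (n = 3), so MCM4 is not read as a change below.

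The promoter letters of these genes are shown first for the members on which the results turn, because E2F sites are the textbook feature of the family. RefSeq promoter sequences (build GRCh38.p14) matched 46 of the 53 genes. The 250 bases before the start were searched on both strands for the 4 motifs TTTCCCGC, TTTGGCGC, TTTCGCGC and TTTGCCGC, and overlapping matches counted separately. At least 1 of them was found in 16 of the 46 promoters (34.8%), against 4.37% of 11746 tested genes with a promoter sequence and 2.79% of all 27305 promoters. CCAAT, in either orientation, was in 54.3% of the 46, against 35.2% of tested genes and 33.0% of all promoters. The windows below hold the motif in capitals, read 5′ to 3′ along the strand of the gene. They are E2F2 (chr1:23531248-23531295, minus strand), TYMS (chr18:657594-657641, plus strand), PCNA (chr20:5126654-5126701, minus strand) and POLE (chr12:132687343-132687380, minus strand).
E2F2: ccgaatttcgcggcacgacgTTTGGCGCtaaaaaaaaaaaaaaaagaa
TYMS: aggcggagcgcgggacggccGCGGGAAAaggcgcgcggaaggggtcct
PCNA: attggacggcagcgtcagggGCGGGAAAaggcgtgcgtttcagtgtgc
POLE: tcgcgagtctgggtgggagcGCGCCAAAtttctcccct
In E2F2 the motif lies on the strand of the gene, and in TYMS, PCNA and POLE on the opposite strand, so that the printed letters are the reverse complement. A match of letters is a description and not evidence of binding. The window of E2F2 and that of POLE hold TTTGGCGC, and those of TYMS and PCNA hold TTTCCCGC, as does the promoter of MCM3, whose window is not printed. As shown next, E2F2 and POLE rose and TYMS, PCNA and MCM3 fell in at least 1 knockdown, 5 genes in all, from which nothing is read about either motif. In the UPF1 knockdown the 16 genes with a motif had a median log2 fold change of -0.063 and the 30 without had -0.070, and in the DHX34 knockdown the medians were -0.045 and -0.066.

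DHX34 depletion left most replication genes near their control level. At an adjusted p of at most 0.005, the study's own significance level, 2 of 53 genes rose and 3 fell (3.77% and 5.66%), beside 5.54% and 4.86% of all 17004 genes tested. The shares of the list are thus near those of the transcriptome. The median SE was 0.0422 in the list and 0.083 over all genes tested, so smaller changes could pass in the list. The 5 genes come from 5 different roles: POLD3 and E2F2 rose, and GINS3, CHAF1B and TYMS fell. On the TMM scale the median log2 fold change of the list was -0.051, against 0.018 over all genes tested. Every gene of the list lay between -0.22 and 0.30.

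POLD3 measured 24.4, 24.5 and 25.0 CPM in SCR and 31.2, 29.9 and 29.9 CPM in the DHX34 knockdown, a log2 fold change of 0.30 ± 0.046 (SE, adjusted p = 0.000956). E2F2 measured 37.1, 38.1 and 37.3 CPM in SCR and 44.96, 46.4 and 46.9 CPM in the knockdown (0.30 ± 0.041, adjusted p = 0.000495). In both genes the lowest knockdown library lay well above the highest control library. GINS3, a subunit of the GINS complex, fell from 37.98, 35.5 and 37.9 CPM to 32.5, 31.0 and 31.9 CPM (log2 fold change -0.22 ± 0.046, adjusted p = 0.00498). CHAF1B, a subunit of the histone chaperone CAF-1, fell from 76.2, 73.2 and 80.1 CPM to 67.0, 65.0 and 66.9 CPM (-0.21 ± 0.041, adjusted p = 0.00395). TYMS fell from 383, 387 and 405 CPM to 341, 342 and 349 CPM (-0.19 ± 0.035, adjusted p = 0.0028). In CPM the groups did not overlap in any of these 3 genes, although GINS3 passed the threshold by a narrow margin. In TPM those of CHAF1B and TYMS overlapped. TYMS shares 19.2% of its exonic bases with ENOSF1 and GINS3 shares 10.9% with an unnamed gene, both on the opposite strand, and whether reads were counted by strand is not given in the sources used here.

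On the TMM scale, all 3 DHX34 knockdown libraries lay below all 3 SCR libraries in 21 of the 53 genes, and above in 8. Of all 17004 genes tested, 3456 (20.3%) lay below and 3589 (21.1%) above. The list thus had the larger share below and the smaller share above on this scale, which was not tested. The smaller median SE of the list (0.0422 against 0.083) lets smaller changes separate. In summed TPM the list lay on the other side, at 4010 ± 42.95 in SCR and 4311 ± 64.0 after DHX34 siRNA (SD, n = 3). Among the 48 genes that did not pass, those nearest to it were ORC1 (log2 fold change 0.16, adjusted p = 0.007), RFC1 (0.19, adjusted p = 0.00744), UHRF1 (0.16, adjusted p = 0.00868) and CHAF1A (0.18, adjusted p = 0.00972), all with higher values in every knockdown library. The MCM genes other than MCM4 had log2 fold changes between -0.097 and 0.030, and none passed. Leaving out any 1 of the 6 libraries brought the 5 calls down to between 1 and 3, and edgeR on counts corrected for transcript length called none, with 22 genes at an unadjusted p under 0.05. DESeq2, on the same counts, called 11 genes (6 higher and 5 lower).

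**Figure D1:**
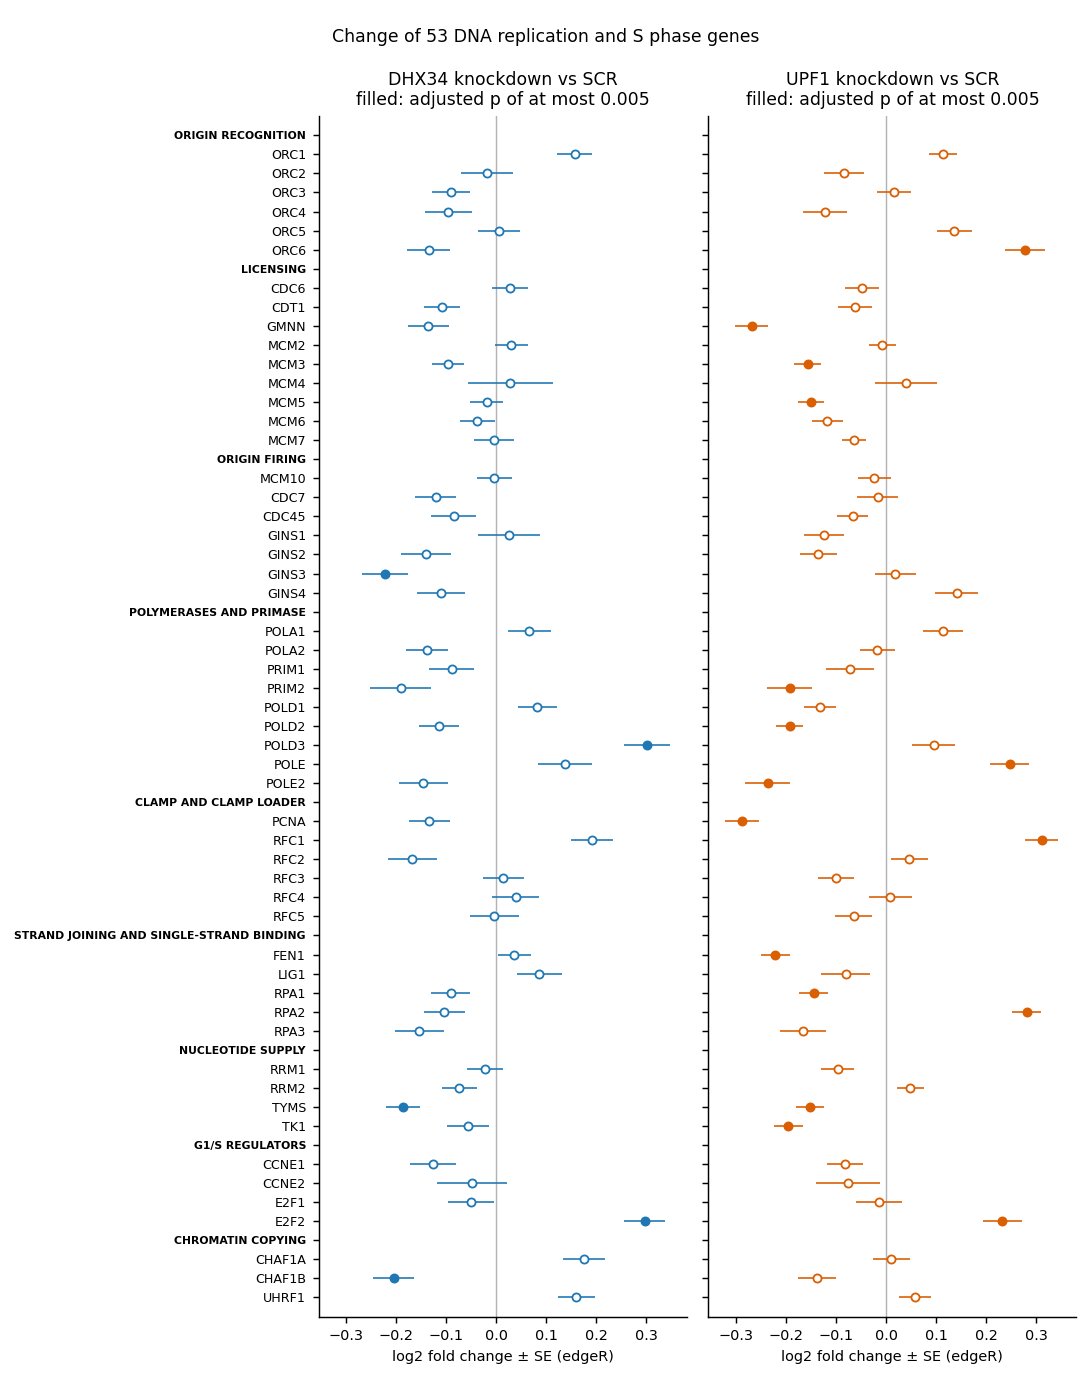
Log2 fold change (x axis, dots) with its standard error (bars) for the 53 genes, grouped by role, in the DHX34 knockdown (left) and the UPF1 knockdown (right), each against the same 3 SCR libraries. Filled dots passed an adjusted p of at most 0.005. All values lie between -0.29 and 0.31 on the TMM scale, with 5 filled dots on the left and 16 on the right. On uncentred TPM the 15 calls for UPF1 are all on the higher side.

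UPF1 depletion was followed by calls in 16 replication genes, most of them lower on the TMM scale, although on uncentred TPM the calls lay on the other side. At the same threshold 5 of 53 genes rose and 11 fell (9.43% and 20.8%), beside 12.4% and 12.9% of all 17184 genes tested. Here too smaller changes could pass in the list, with a median SE of 0.0355 against 0.0755 over all genes tested. PCNA, GMNN, POLE2, FEN1, TK1, PRIM2, POLD2, MCM3, TYMS, MCM5 and RPA1 fell, and RFC1, RPA2, ORC6, POLE and E2F2 rose. The median log2 fold change was -0.065, against 0.016 over all genes tested. With the replicate number as a block, 5 genes rose and 13 fell, with MCM6 and POLD1 added. The sample titles state no pairing, and the deviations of same-numbered SCR and UPF1 libraries correlated unevenly (r of 0.464, 0.113 and 0.295). The direction of the split depended on the scaling. In TPM, which is a share of all transcripts in a library, 15 replication genes were called higher and none lower by limma on log2(TPM + 0.5), and 7 of the 16 called genes (MCM3, MCM5, PRIM2, POLD2, RPA1, TYMS and TK1) changed sign, with 3 of the 16 calls kept and 12 other genes gained, on a scale where the median of all genes also shifted by 0.17. After each library was centred on its median, an alternative chosen after seeing the data, 2 were higher and 13 lower. Centring took off more than 0.17. It moved the median log2 fold change of the 61 other pathway genes described below from 0.17 to -0.12, so the direction of these calls depends on the centring.

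Origin recognition genes held 1 of the calls. ORC6 rose from 54.6, 52.2 and 53.1 CPM in SCR to 65.5, 61.8 and 67.1 CPM in the UPF1 knockdown (log2 fold change 0.28 ± 0.041, adjusted p = 0.000169), with no overlap between the groups. ORC1 and ORC5 had values of 0.11 and 0.14 (adjusted p = 0.00701 and 0.00833), and ORC2, ORC3 and ORC4 lay between -0.12 and 0.015. The summed TMM-scaled level of the 6 genes was 408 ± 4.69 CPM in SCR, 407 ± 3.48 CPM after DHX34 siRNA and 430 ± 3.97 CPM after UPF1 siRNA (SD, n = 3).

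Among the 9 licensing genes 3 fell and none rose on the TMM scale. GMNN encodes geminin, which binds CDT1 and blocks a new round of licensing. It measured 147, 139 and 143 CPM in SCR and 118, 117 and 123 CPM in the UPF1 knockdown, a log2 fold change of -0.27 ± 0.033 (adjusted p = 4.58e-05). MCM3 fell by 0.16 and MCM5 by 0.15 on the log2 scale (adjusted p = 0.000537 and 0.000614). MCM6 (-0.12, adjusted p = 0.00901) and MCM7 (-0.064, adjusted p = 0.0491) did not pass, although every UPF1 library lay below every SCR library. MCM2, at -0.0075, and CDC6, a loading factor, at -0.049, did not pass either. Apart from MCM4, the helicase subunits thus all had negative values on the TMM scale, that of MCM2 within its SE of 0.026. They differed in whether they passed, and the difference between them was not tested. On uncentred TPM, limma called MCM2 and MCM7 higher instead, and MCM3 and MCM5 had positive values that did not pass. None of the 7 origin firing genes passed, with values from -0.14 for GINS2 to 0.14 for GINS4.

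The polymerase and primase genes went both ways. POLE, the catalytic subunit of polymerase epsilon, rose from 150, 160 and 145 CPM to 183, 178 and 180 CPM (0.25 ± 0.038, adjusted p = 0.000272). POLE2, its partner subunit, fell (log2 fold change -0.24, adjusted p = 0.00105), as did POLD2 (-0.19, adjusted p = 0.000112) and PRIM2 (-0.19, adjusted p = 0.00427). PRIM2 encodes the large primase subunit and POLD2 a regulatory subunit of polymerase delta. POLA1, POLA2, PRIM1, POLD1 and POLD3 did not pass, with values between -0.13 and 0.11. The calls of POLE and E2F2 were lost when the trend of fold change with gene length was removed. Counts corrected for transcript length lost both as well, together with POLE2, POLD2 and PRIM2.

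The clamp and its loader gave the largest change in each direction on the TMM scale. PCNA fell from 262, 246 and 263 CPM in SCR to 207, 207 and 220 CPM in the UPF1 knockdown (log2 fold change -0.29 ± 0.034, adjusted p = 3.42e-05). RFC1, the large subunit of the loader that places PCNA, rose from 61.4, 63.7 and 64.5 CPM to 78.6, 79.0 and 78.5 CPM (0.31 ± 0.033, adjusted p = 1.43e-05). The 3 knockdown libraries of RFC1 differed by less than 1 CPM and lay above every control library, and those of PCNA lay below every control library. The RFC1 call was lost with counts corrected for transcript length and on TPM with or without centring. The PCNA call was lost on uncentred TPM alone of these. RFC2, RFC3, RFC4 and RFC5 had values between -0.10 and 0.046 and did not pass.

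The single-strand binding complex RPA was split in the same way. RPA2 rose from 197, 188 and 199 CPM to 237, 241 and 236 CPM (0.28 ± 0.028, adjusted p = 1.01e-05), RPA1 fell (-0.15, adjusted p = 0.00159), and RPA3 did not pass at -0.17 (adjusted p = 0.0117). FEN1, the nuclease that trims Okazaki fragments, fell from 207, 202 and 205 CPM to 175, 173 and 181 CPM (-0.22 ± 0.029, adjusted p = 7.67e-05). LIG1, which seals them, did not pass (-0.081, adjusted p = 0.213). Of the nucleotide supply genes, TK1, thymidine kinase, and TYMS fell by 0.20 and 0.15 on the log2 scale (adjusted p = 0.000214 and 0.000971), and RRM1 and RRM2 did not pass (-0.097 and 0.048). Among the G1/S regulators E2F2 rose to 44.5, 45.4 and 42.9 CPM (0.23 ± 0.039, adjusted p = 0.000476), and E2F1, CCNE1 and CCNE2 did not pass, nor did any of the 3 chromatin copying genes. CCNE2 shares 37.05% of its exonic bases with INTS8 on the opposite strand.

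**Figure D2:**
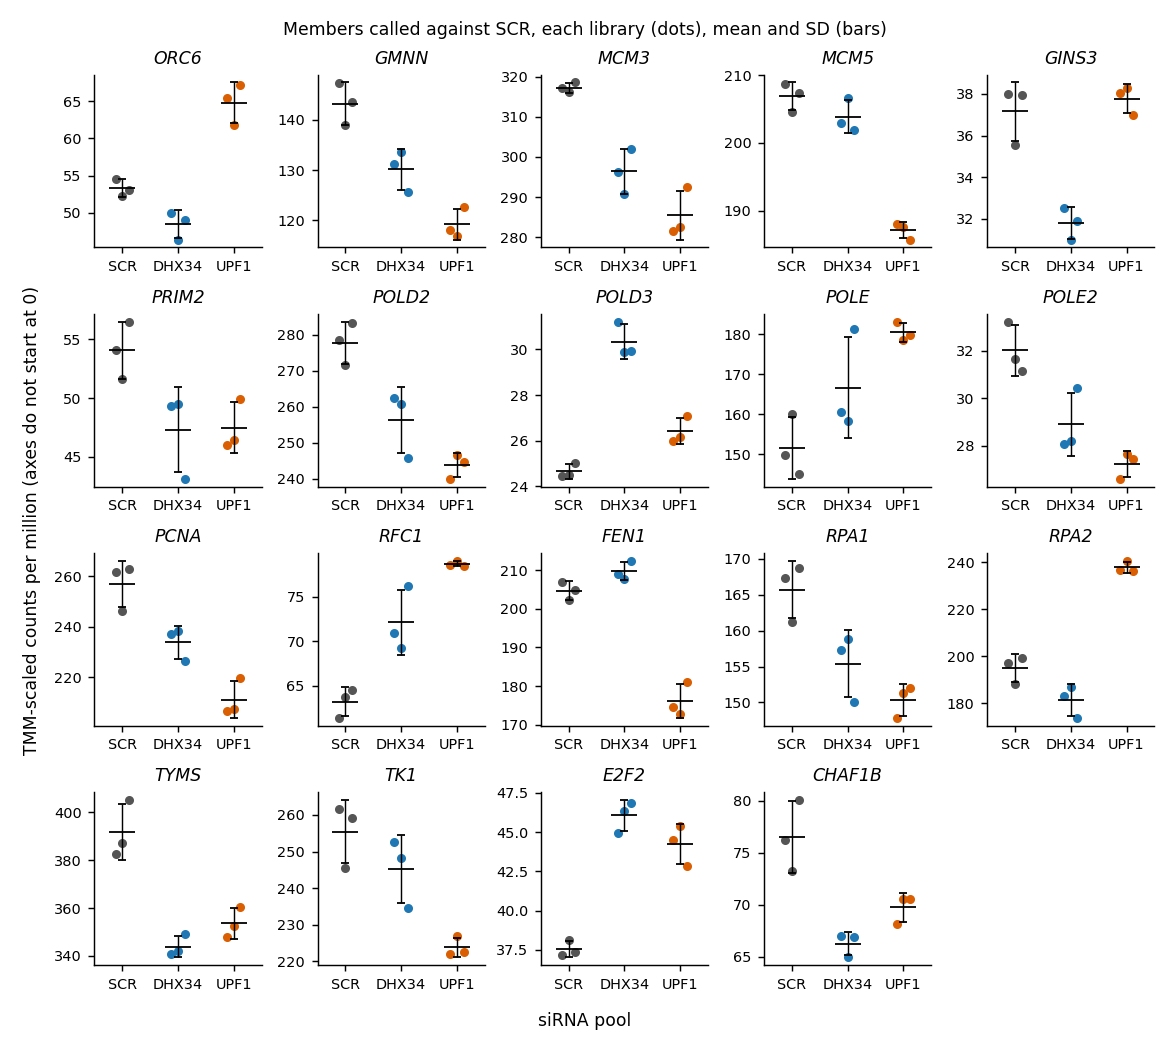
TMM-scaled CPM (y axis of each panel, not starting at 0) in each library for the 19 genes called against SCR in at least 1 knockdown, with the mean and SD of each group of 3 as bars. RFC1, RPA2, ORC6 and POLE stand highest under UPF1 siRNA and PCNA, GMNN and FEN1 lowest, while POLD3 and GINS3 stand apart under DHX34 siRNA.

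Both knockdowns were set against the same 3 SCR libraries, so their values are given side by side and their likeness is not read as a result. On the TMM scale E2F2 rose in both (0.30 and 0.23) and TYMS fell in both (-0.19 and -0.15). With the trend of fold change with gene length removed, E2F2 passed in neither (0.18 and 0.13, adjusted p = 0.0065 and 0.0148) and TYMS did not pass in the DHX34 comparison (-0.17, adjusted p = 0.00655). On uncentred TPM the value of TYMS was -0.024 with DHX34 siRNA and 0.076 with UPF1 siRNA, and neither passed. The direct comparison of the knockdowns, which does not use SCR, is the test of a difference.

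Between the knockdowns, 6 replication genes were higher and 2 lower in UPF1 than in DHX34 libraries (11.3% and 3.77%), beside 9.89% and 7.47% of all 17435 genes tested. ORC6 gave the largest difference: 49.96, 46.4 and 49.0 CPM in DHX34 libraries and 65.5, 61.8 and 67.1 CPM in UPF1 libraries (log2 difference 0.43 ± 0.044, adjusted p = 2.99e-05). RPA2 followed, with 183, 187 and 174 CPM against 237, 241 and 236 CPM (0.40 ± 0.034, adjusted p = 7.45e-06). For both genes the SCR libraries lay between the knockdowns in CPM, with no overlap. Neither ORC6 nor RPA2 passed in the DHX34 comparison with SCR (edgeR, adjusted p = 0.0404 and 0.0878). In TPM the DHX34 libraries of ORC6 overlapped with SCR. Those of RPA2 lay above SCR in TPM, at 136 ± 2.95 against 131 ± 0.607 (SD, n = 3). GINS4 was at 43.1, 43.2 and 47.3 CPM in DHX34 libraries and 51.0, 54.3 and 54.3 CPM in UPF1 libraries (0.27 ± 0.047, adjusted p = 0.00125). GINS3 was at 38.1, 38.3 and 36.96 CPM in UPF1 libraries, near SCR, and 0.26 ± 0.040 above the DHX34 libraries on the log2 scale (adjusted p = 0.000555). FEN1 was lower in UPF1 libraries than in DHX34 libraries, which held 209, 208 and 212 CPM (-0.24 ± 0.031, adjusted p = 0.000163). On the TMM scale GINS3 and GINS4 were thus called higher in the UPF1 than in the DHX34 libraries, and FEN1 lower. The GINS4 call was lost with counts corrected for transcript length, on TPM with or without centring, and without DHX34 replicate 1 or 2 or UPF1 replicate 2 or 3. Its TPM overlapped, at 25.8, 21.3 and 30.8 in DHX34 and 26.9, 31.4 and 26.9 in UPF1 libraries. Length correction and centred TPM also lost GINS3, and uncentred TPM lost FEN1.

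RFC2 measured 105, 105 and 97.3 CPM in DHX34 libraries and 118, 118 and 122 CPM in UPF1 libraries (0.23 ± 0.038, adjusted p = 0.000851), with SCR at 118, 109 and 120 CPM. RRM2 was higher by 0.14 and POLD1 lower (log2 difference -0.20) in UPF1 libraries. On the TMM scale, in 12 of the 53 genes all UPF1 libraries lay above all DHX34 libraries and in 14 of the 53 below, beside 23.2% and 22.7% of all genes tested. Without DHX34 replicate 3 the calls came to 16 (8 higher and 8 lower), and with DESeq2 they came to 14 (6 and 8).

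The summed level of the list moved by a few percent, in a direction set by the scale. The summed TMM-scaled level of the 53 genes was 7703 ± 95.7 CPM in SCR, 7502 ± 75.4 CPM after DHX34 siRNA and 7416 ± 69.4 CPM after UPF1 siRNA (SD, n = 3). The summed TPM was 4010 ± 42.95 in SCR, 4311 ± 64.0 after DHX34 siRNA and 4446 ± 39.9 after UPF1 siRNA. On both scales each knockdown lay outside the range of SCR, but on opposite sides. In percent, the DHX34 knockdown lay 7.53 above SCR in summed TPM and fell by 2.62 on the TMM scale, and the UPF1 knockdown lay 10.9 above and fell by 3.73. By role and on the TMM scale, nucleotide supply summed to 1248 ± 30.5 CPM in SCR, 1168 ± 2.53 CPM after DHX34 siRNA and 1177 ± 16.6 CPM after UPF1 siRNA, with both knockdowns below every control library. The chromatin copying genes summed to 345 ± 5.71, 367 ± 7.42 and 347 ± 3.67 CPM in the same order, and only the DHX34 libraries stood apart, above SCR. In summed TPM, by contrast, both knockdowns lay above every SCR library for nucleotide supply and for chromatin copying. Counting all UPF1 libraries against all SCR libraries on the TMM scale, 12 of the 53 genes lay wholly above and 22 wholly below. Of all 17184 genes tested, 4573 (26.6%) lay above and 4113 (23.9%) below. The list thus had the larger share below and the smaller share above on this scale, which was not tested. Its smaller median SE (0.0355 against 0.0755) lets smaller changes separate.

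**Figure D3:**
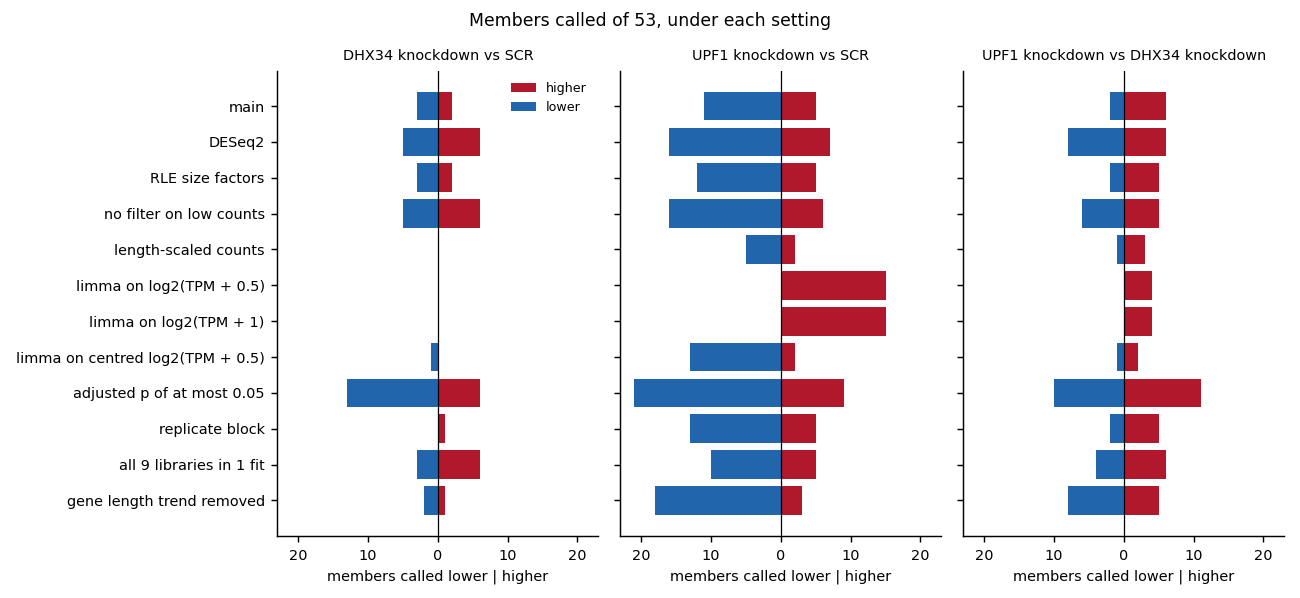
Number of the 53 genes called lower (bars to the left of 0) and higher (bars to the right) in the 3 comparisons, for the main test and each other setting, at an adjusted p of at most 0.005 unless stated. For UPF1 against SCR the bars lean to the left except for uncentred TPM, where all 15 lie to the right.

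NMD removes transcripts with an early stop codon, and several replication genes make such transcripts besides their coding forms. The files list 436 transcripts of the 53 genes, of which 43, from 20 genes, are annotated as NMD targets. The share of a gene's TPM that lies in transcripts not annotated as protein coding (NMD targets, retained introns and others) was counted where all 3 knockdown libraries lay on 1 side of all 3 SCR libraries. Single shares are given without a test. In the DHX34 knockdown 4 of 45 replication genes lay above and 0 below, beside 9.85% and 5.74% of 8936 genes. In the UPF1 knockdown 10 of 45 lay above and 2 of 45 below, beside 23.4% and 4.33%. For NMD-annotated transcripts alone, 1 of 20 genes lay above and 1 below in the DHX34 knockdown (7.0% and 6.16% of 4759 genes). In the UPF1 knockdown 8 of 20 lay above and 1 of 20 below, beside 29.0% and 2.71%. The gene below was MCM4 in both, which is not read as a change because its representative transcript was not analysed here.

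CDT1, the licensing factor, had 21.2, 21.9 and 22.9% of its TPM in non-coding transcripts in SCR and 27.7, 27.2 and 28.8% in the DHX34 knockdown, with 23.03, 27.6 and 22.05% in the UPF1 knockdown. RRM1, the large subunit of ribonucleotide reductase, had 2.24, 3.00 and 3.99% in SCR, 5.77, 8.64 and 7.66% in the DHX34 knockdown and 9.51, 5.69 and 6.26% in the UPF1 knockdown. The CDT1 shares were separated in the DHX34 libraries and overlapped in the UPF1 libraries, while those of RRM1 were separated in both. For the retained-intron transcript RRM1-203, all SCR libraries are listed at 0 and the DHX34 libraries at 2.73, 5.11 and 6.65 TPM. None of the 270 transcripts of the list tested in this comparison passed. Reads that fit several transcripts are divided between them, so such low values are uncertain. POLD2 went from 6.50, 4.68 and 2.88% in SCR to 10.9, 15.1 and 13.8% in the UPF1 knockdown, with 6.75, 6.36 and 9.19% in the DHX34 knockdown. Its retained-intron transcript POLD2-213 was at 1.93, 2.61 and 0.435 TPM in SCR and at 11.5, 23.6 and 17.7 TPM in the UPF1 knockdown (log2 fold change 3.18 ± 0.65, adjusted p = 0.0297, not past the threshold), while the coding POLD2-218 fell by 0.41 on the log2 scale (adjusted p = 0.00123).

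**Figure D4:**
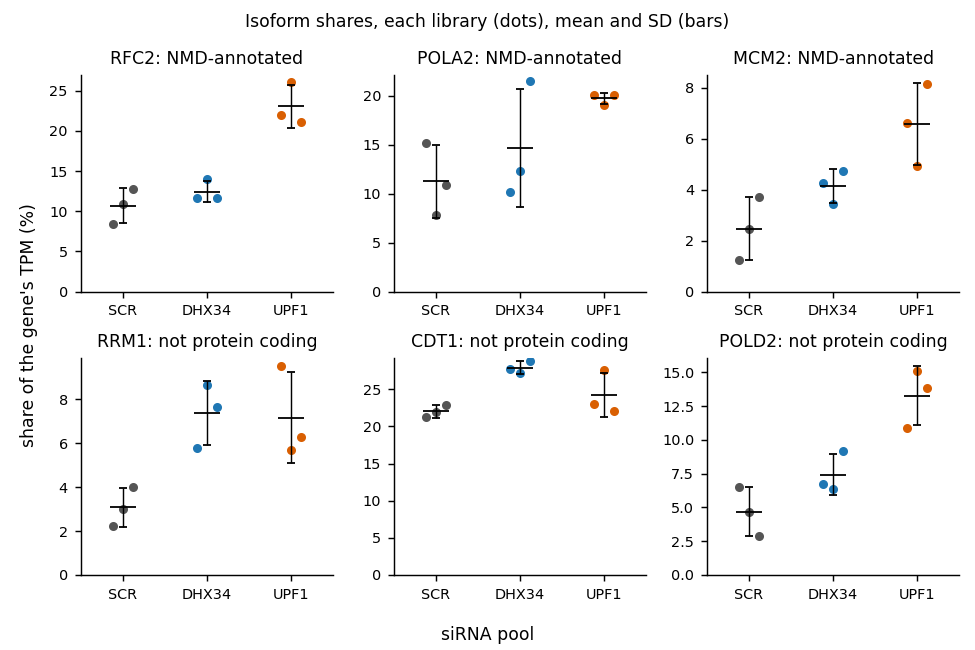
Share of a gene's TPM (y axis, %) in NMD-annotated transcripts (RFC2, POLA2, MCM2) or in all transcripts not annotated as protein coding (RRM1, CDT1, POLD2), in each library, with the mean and SD of each group of 3 as bars. In RFC2, POLA2, MCM2 and POLD2 the UPF1 libraries lie above SCR, and in CDT1 the DHX34 libraries do.

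The NMD-annotated shares rose above SCR in every UPF1 library for RFC2, POLA2, MCM2, RRM1, RRM2, MCM5, PRIM1 and RFC1. POLA2, the second subunit of polymerase alpha, went from 15.2, 7.80 and 10.8% in SCR to 20.1, 19.1 and 20.03%. MCM2 went from 1.25, 2.45 and 3.73% to 6.64, 4.94 and 8.14%. The gene log2 fold changes of POLA2 and MCM2 on the TMM scale were -0.018 and -0.0075, which did not pass, whereas the summed TPM of MCM2 went from 73.9 ± 1.43 in SCR to 85.8 ± 0.702 in the UPF1 knockdown (SD, n = 3) and passed in limma on log2(TPM + 0.5). Of 29 NMD-annotated transcripts of these genes tested one by one, none passed the threshold (edgeR, adjusted over 62497 transcripts), 16 had an unadjusted p under 0.05 (55.2%) and 23 had a positive log2 fold change (79.3%), with a median of 0.74. Of all 6111 NMD-annotated transcripts tested, 129 passed as higher and 12 as lower, 28.0% had an unadjusted p under 0.05 and 74.6% were positive, with a median of 0.52. DESeq2 called 6 of the 29, and 47 transcripts of the list in all, 17 higher and 30 lower. Of all 283 transcripts of the list the main test called 0 higher and 3 lower, namely POLD2-218, FEN1-201 and GMNN-201, beside 0.970% and 1.62% of all transcripts. With the replicate block none of the 3 passed. In the DHX34 knockdown 0 of 270 passed in either direction, beside 0.0348% and 0.0116% of all transcripts, 42 had an unadjusted p under 0.05, and DESeq2 called 9.

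RFC2, a small subunit of the clamp loader on chr7:74231499-74254458 (GRCh38, minus strand), gave the largest rise in isoform share among the replication genes, and was picked out after these values were seen. Its NMD-annotated share was 8.43, 10.9 and 12.7% in SCR, 11.7, 13.98 and 11.7% in the DHX34 knockdown and 21.9, 26.1 and 21.1% in the UPF1 knockdown. RFC2-203 was at 2.01, 1.52 and 2.39 TPM in SCR, 2.75, 2.24 and 2.27 TPM in the DHX34 knockdown and 7.82, 6.84 and 7.82 TPM in the UPF1 knockdown (log2 fold change 1.67 ± 0.23, adjusted p = 0.00738, just outside the threshold). RFC2-207 went from 3.77, 5.30 and 5.99 TPM in SCR to 10.5, 13.9 and 9.43 TPM in the UPF1 knockdown (0.91 ± 0.23, adjusted p = 0.062). The coding RFC2-201 was at 62.5, 63.8 and 66.4 TPM in SCR and 71.8, 67.2 and 73.3 TPM in the UPF1 knockdown, with a log2 fold change of -0.12 on the TMM scale (adjusted p = 0.232). Both NMD-annotated forms thus had their highest values in the UPF1 libraries, without overlap. In TPM the UPF1 libraries of RFC2-201 also lay above every SCR library, by a smaller factor.

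The 3 transcripts differ at the exon that follows the third exon (chr7:74249739-74249780). RFC2-201 goes on into an exon of 107 bases (chr7:74249012-74249118). RFC2-203 uses an acceptor 102 bases further upstream, so that its exon has 209 bases and a stop codon inside the added part (chr7:74249146-74249148). RFC2-207 skips the exon and joins the next (chr7:74246662-74246763), where a stop codon follows at once (chr7:74246755-74246757). Below are the last 20 bases of the third exon with what follows them, from the GENCODE 44 transcripts on GRCh38, with the stop codon in capitals. RFC2-201 is shown for 20 bases beyond the junction and has no stop codon there.
RFC2-201: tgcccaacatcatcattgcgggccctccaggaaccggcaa
RFC2-203: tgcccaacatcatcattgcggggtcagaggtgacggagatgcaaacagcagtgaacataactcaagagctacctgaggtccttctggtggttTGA
RFC2-207: tgcccaacatcatcattgcggggcatTGA
The first 20 bases are shared, and the reading frame ends 75 bases after the junction in RFC2-203 and 9 bases after it in RFC2-207.

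**Figure D5:**
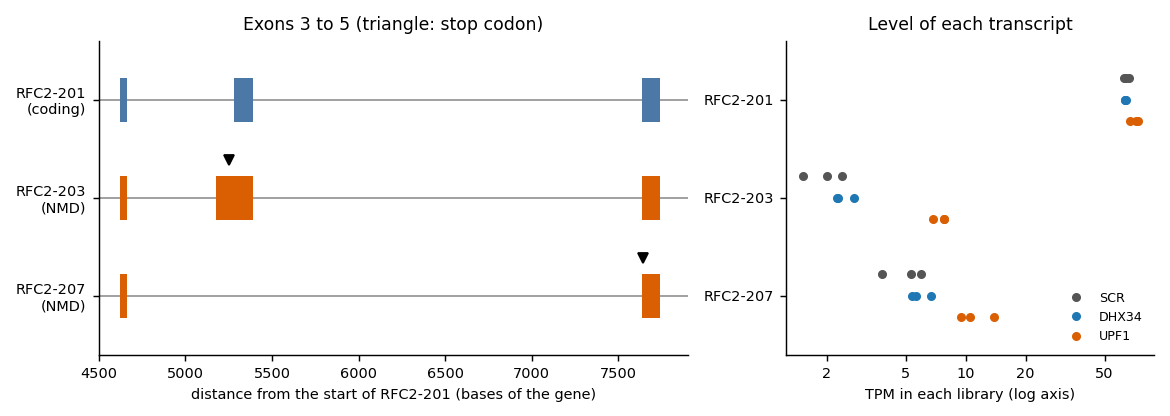
Left, exons 3 to 5 of 3 RFC2 transcripts drawn to scale by distance from the start of RFC2-201 (x axis, bases), with stop codons as triangles. Right, TPM of each transcript in each library (x axis, log scale), where RFC2-203 and RFC2-207 are highest in the 3 UPF1 libraries. RFC2-201 moves less on this axis, although its UPF1 libraries also lie above SCR.

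Other genes of the pathway, a list of 61 that holds partners of the roles above, showed larger single changes. In the DHX34 knockdown 3 rose and 1 fell (4.92% and 1.64%, beside 5.54% and 4.86% of all genes tested), and in the UPF1 knockdown 8 rose and 15 fell (13.1% and 24.6%, beside 12.4% and 12.9%). CDKN1A, which encodes the cyclin-dependent kinase inhibitor p21, rose in both, from 4.96 CPM in SCR to 8.31 CPM in the DHX34 knockdown (log2 fold change 0.75 ± 0.097, adjusted p = 0.00035) and to 8.08 CPM in the UPF1 knockdown (0.70 ± 0.089). E2F7, a repressing E2F factor, rose in both as well (0.33 and 0.47). CLSPN, a checkpoint adaptor, rose and POLE4, a small polymerase epsilon subunit, fell after DHX34 siRNA (0.27 and -0.45). After UPF1 siRNA DBF4B, an activator of CDC7, rose (0.56), and POLD4, DCK and RNASEH2C fell (-0.42, -0.42 and -0.37). POLD4 is a small polymerase delta subunit, DCK is a kinase of nucleotide supply, and RNASEH2C is a subunit of the nuclease that removes RNA from DNA. Directly between the knockdowns, 8 of the 61 were higher and 6 lower in UPF1 libraries, with DBF4B (0.64), MCM9 (0.35) and RBL1 (0.32) the farthest above and POLD4 (-0.62), DCK (-0.43) and LRWD1 (-0.23) the farthest below among those with at least 5 CPM. Here too the split depended on the scale, and limma on uncentred log2(TPM + 0.5) called 21 of the 61 higher and 1 lower in the UPF1 knockdown.

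Genes of mitosis, a list of 20, gave a point of comparison from another phase of the cycle. On the TMM scale none rose and 9 fell (45%) in the UPF1 knockdown, beside 12.4% and 12.9% of all genes tested. By contrast, limma on uncentred log2(TPM + 0.5) called 4 higher and none lower, and 0 higher and 8 lower once centred. Centring moved the median log2 fold change of the 20 genes from 0.11 to -0.18. On the TMM scale in the DHX34 knockdown 1 rose and 1 fell (5% each), beside 5.54% and 4.86%. The summed TMM-scaled level of the 20 was 3352 ± 48.0 CPM in SCR, 3270 ± 14.7 CPM after DHX34 siRNA and 3136 ± 54.2 CPM after UPF1 siRNA (SD, n = 3). Their median log2 fold change was -0.10 in the UPF1 knockdown, beside -0.065 for the replication genes.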

How the data were processed

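Poly(A)-selected RNA of 9 K562 libraries, 3 for each of SCR, DHX34 and UPF1 siRNA, was quantified by the authors with salmon 1.5.2 (with GC bias correction) against the cDNA and non-coding RNA of Ensembl release 93. The deposited values are estimated counts and TPM per transcript. A read that fits several transcripts is divided between them, so isoform values are less certain than gene values, and the strand setting is not given in the sources used here. Tables that hold only the authors' own comparisons (sleuth and SUPPA2 2.3) were not used.

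Transcripts were matched by identifier to GENCODE release 44 (97.9% of 203027 transcripts, holding 98.1% of the counts in each library), and estimated counts were summed per gene and rounded. Each pair of groups was fitted alone with edgeR 4.0.16 in R 4.3.3 (quasi-likelihood test, TMM scaling, filterByExpr with a minimum count of 10), with Benjamini-Hochberg adjustment over all genes, or over all transcripts. Calls were made at an adjusted p of at most 0.005. All 53 genes passed the filter in every comparison. Alternatives used DESeq2 1.42.0, limma 3.58.1, other scalings and filters, and libraries left out in turn. Scripts were tested on simulated data. The 53 genes and the other lists were chosen with earlier results of these data known. The 6 called genes with the largest absolute log2 fold change in each comparison are given library by library, with E2F2 and FEN1 added. Among other pathway genes, up to 3 called genes in each direction with a mean of at least 5 CPM are named. E2F-type motifs were searched by exact letters, and windows are printed for those of the largest called genes, 6 in each comparison, that hold one. The deviations of same-numbered SCR and UPF1 libraries from their group means correlated across 10064 genes (r of 0.464, 0.113 and 0.295). Between different numbers r ran from -0.361 to 0.203, so the value of 0.113 for replicate 2 did not stand out. The sample titles state no pairing, so taking these numbers to pair the libraries is an inference from these data. The main fit does not use it. The p-values measure the spread between 3 cultures of 1 cell line in a group, and library totals of 73478797 to 103625443 estimated counts set the precision of low transcripts.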

Additional observations from a re-analysis of the deposited data

How the results depend on the processing

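For DHX34 against SCR, the 5 called genes became 11 with DESeq2, 11 with no filter on low counts and 9 with all 9 libraries in 1 fit. They became 19 at an adjusted p of at most 0.05, 3 with the gene length trend removed (without TYMS and E2F2), and 1 with a replicate block. Whether these numbers pair the libraries is not stated, and same-numbered SCR and DHX34 libraries had r of -0.066, -0.184 and -0.403. Length-scaled counts in edgeR and limma on log2(TPM + 0.5) or log2(TPM + 1) gave 0 (22, 29 and 28 genes at an unadjusted p under 0.05), limma on centred TPM gave 1, and leaving out 1 library gave 1 to 3. For UPF1 against SCR, the 16 calls became 7 with length-scaled counts and 30 at an adjusted p of at most 0.05. Length scaling lost MCM5, PRIM2, POLD2, POLE, POLE2, RFC1, RPA1, TYMS and E2F2. The counts under other settings stayed within 1.5 times (18 with the replicate block). Even so, limma on uncentred TPM kept 3 of the 16 genes, lost 13 and gained 12. Leaving out 1 library gave 11 to 17. For UPF1 against DHX34, the 8 calls became 14 with DESeq2, 4 with length-scaled counts, 4 with limma at either pseudocount, 3 with limma on centred TPM, 21 at an adjusted p of at most 0.05, 13 with the gene length trend removed, and 5 to 16 without 1 library (16 without DHX34 replicate 3, 5 without UPF1 replicate 2 or 3). The replicate block gave 7 there, where same-numbered DHX34 and UPF1 libraries had r of -0.177, 0.145 and -0.198. The cause of these shifts was not tested.

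Of the 52 fold changes of named genes and transcripts, those of 7 called genes reversed in UPF1 libraries on uncentred TPM, none past the threshold. With a pseudocount of 0.5 the log2 values were 0.049 for MCM3, 0.10 for MCM5, 0.020 for PRIM2, 0.10 for POLD2, 0.091 for RPA1, 0.076 for TYMS and 0.036 for TK1, and with 1 they were 0.049, 0.10, 0.020, 0.10, 0.090, 0.076 and 0.036. The summed TPM of the 53 genes, 7.53% above SCR after DHX34 siRNA and 10.9% after UPF1 siRNA, became -2.62% and -3.73% on the TMM scale, and ran from 6.63 to 8.16% and from 10.3 to 11.5% without 1 library. Counts of separated non-coding shares went from 4 to 2 with NMD-annotated transcripts alone (DHX34), and without 1 library, where fewer values have to separate, to 11 to 14 (DHX34) and 15 to 20 (UPF1, from 12). Of transcripts, DHX34 calls went from 0 to 9 with DESeq2 and 4 at an adjusted p of at most 0.05. The 3 UPF1 calls became 47 and 31, 0 in edgeR with the replicate block (62 at an unadjusted p under 0.05), and 0 without any 1 library. Depth limits mainly the transcripts of a few TPM.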
